A study of Mus musculus with 12 samples.

Results

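The respiratory chain of the inner mitochondrial membrane is built from subunits of 2 genomes, and the genes described here are those of the nucleus. They were chosen by name among protein-coding genes: Nduf subunits of complex I, the Sdh genes of complex II, the Uqcr genes of complex III, the Cox4i, Cox5, Cox6, Cox7 and Cox8 families of complex IV, and the Atp5 genes of complex V, the ATP synthase. The rule found 88 of 78275 gene IDs, with 37 in complex I, 4 in complex II, 8 in complex III, 20 in complex IV and 19 in complex V. Ndufa4 and Cox7a2l, named for other roles, are counted with complex IV, and Cox5b-ps, which the file annotates as protein-coding in spite of its name, is counted there too. Cytochrome c1 (Cyc1) and the mitochondrially encoded subunits fall outside the rule.

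Complexes I and II pass electrons from NADH and succinate to ubiquinone, complex III hands them to cytochrome c, complex IV reduces oxygen, and complex V uses the proton gradient to make ATP. Several complex IV subunits exist as paired isoforms, a general one and one of heart and skeletal muscle. Cox6a2, Cox7a1 and Cox8b are the muscle partners of Cox6a1, Cox7a2 and Cox8a, and differentiating muscle is known to shift toward them.

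The cells were C2C12, an established mouse myoblast line that forms contractile myotubes when serum is withdrawn. All were transfected, either with an siRNA to Zfp143, the gene of the zinc finger protein ZNF143, or with a non-targeting one, and were harvested 24 hours later in 10% fetal bovine serum or moved at that time to 1% horse serum for 5 days. The 4 groups of 3 libraries are induced knockdown, induced control, uninduced knockdown and uninduced control cells, named by their labels. The labels do not say whether these were separate cultures, and each p-value therefore rests on a spread that may be technical.

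Library totals lay between 13520906 and 19068323 estimated counts. The siRNA target was lower in uninduced knockdown cells (log2 fold change -1.41; edgeR adjusted p = 6.12e-05), while on day 5 of induction no lower level was detected (log2 fold change -0.18; adjusted p = 0.646). A pair of libraries stood apart: uninduced control replicate 3, in which mitochondrially encoded genes took 6.02% of counts, and induced knockdown replicate 1, the shallowest, with 1.95%. Some calls change without these libraries. The 8 myoblast and myotube markers summed to 2890 to 3762 CPM (counts scaled to library size) in induced knockdown cells and 7317 to 9139 CPM in induced control cells. They summed to 367 to 433 CPM in uninduced knockdown cells and 343 to 387 CPM in uninduced control cells. Most of the uninduced sum was the filament protein Des, at 342 to 402 CPM in uninduced knockdown cells and 269 to 329 CPM in uninduced control cells. The myogenic regulators Myf5 and Myog were at lower levels in uninduced knockdown cells. Myf5 had 14.8 to 18.8 CPM in uninduced knockdown cells and 44.3 to 64.1 CPM in uninduced control cells, and Myog 1.65 to 1.94 CPM and 2.93 to 3.55 CPM. The other markers did not go that way in these groups. Myod1 overlapped, at 4.84 to 8.19 CPM and 5.91 to 7.57 CPM. Mymk was higher with knockdown, at 0.904 to 1.06 CPM against 0 to 0.217 CPM. Acta1 was higher too, at 0.285 to 1.13 CPM against 0 to 0.217 CPM. Ckm and Myh3 reached at most 0.118 CPM.

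Of the 88 members 83 passed the filter on low counts, and 5 did not. Cox6b2 and Cox8c, isoforms known from testis, and a second gene ID of Atp5po had no counts in the 12 libraries. Cox7b2 had 19 counts and Cox4i2, the isoform of complex IV known from lung and hypoxia, had 22 counts over all libraries. The general subunits of every complex were abundant. On the TPM scale, which divides by transcript length, all members together held 2.24% to 2.60% of the transcripts in induced knockdown cells, 2.41% to 2.67% in induced control cells, 2.53% to 2.74% in uninduced knockdown cells and 2.60% to 2.74% in uninduced control cells.

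Among the 83 tested members, mean TPM over the 4 groups was highest for Atp5f1b, the catalytic beta subunit of the ATP synthase, at 1398 TPM. The lowest of the tested members of complex V was Atp5mf, a small membrane subunit, at 212 TPM. In complex IV the tested members ran from Cox6c, a small structural subunit at 978 TPM, to the muscle isoform Cox7a1 at 5.13 TPM. Complex III spanned 109 TPM for the core protein Uqcrc1 to 555 TPM for Uqcrq, a small subunit that binds at cytochrome b. Complex I lay lower, between 42.3 TPM for Ndufs4 and 454 TPM for Ndufa12, with a median of 160.0 TPM over its 37 members. Complex II was narrow, from 97.0 TPM for the flavoprotein Sdha to 168 TPM for the membrane anchor Sdhd.

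The muscle isoforms did not move together. Cox7a1 and Cox8b rose with induction in control cells, while Cox6a2 was already present in uninduced cells and fell. In induced knockdown cells Cox6a2 and Cox8b were lower than in induced control cells.

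Cox6a2 (ENSMUSG00000030785.9) stood at 7.63, 8.74 and 13.8 TPM in induced knockdown cells and at 48.1, 50.9 and 48.2 TPM in induced control cells. It had 44.1, 39.4 and 36.9 TPM in uninduced knockdown cells and 68.4, 67.1 and 97.2 TPM in uninduced control cells. The Cox6a2 groups did not overlap in any of the 4 comparisons, and the highest library was uninduced control replicate 3. Knockdown lowered Cox6a2 in induced cells, with a log2 fold change of -2.32 (SE 0.31; edgeR adjusted p = 0.000113) on the TMM-scaled CPM scale used for all tests. In uninduced cells the log2 fold change was -0.97 (SE 0.26; adjusted p = 0.0107), and -0.50 (adjusted p = 0.0379) without uninduced control replicate 3. Induction lowered it too, with log2 fold changes of -2.52 in knockdown cells (adjusted p = 3.92e-06) and -1.17 in control cells (adjusted p = 0.00116); the value in control cells was -0.72 without uninduced control replicate 3 (adjusted p = 0.00266).

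The share of Cox6a2 in the summed TPM of the Cox6a pair was 1.31%, 1.25% and 2.19% in induced knockdown cells, against 7.18%, 8.87% and 9.56% in induced control cells. It was 7.12%, 7.42% and 5.45% in uninduced knockdown cells, against 10.0%, 10.5% and 19.9% in uninduced control cells. An exon of Cox6a2 overlaps one of Itgad on the opposite strand in the GENCODE vM21 annotation, and the kit kept no strand. Itgad reached at most 0.110 CPM in any library, against at least 1.73 CPM for Cox6a2.

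Cox8b (ENSMUSG00000025488.10) had 8, 9 and 6 counts in induced knockdown cells and 50, 48 and 53 counts in induced control cells. It had 2, 0 and 0 counts in uninduced knockdown cells and no count in uninduced control cells. Induction in control cells raised it at least 15.1-fold against a floor of 3 counts per library (adjusted p = 1.47e-06). In knockdown cells the ratio of summed counts, induced over uninduced, was 10.9 (95% counting interval 2.68 to 95.04; adjusted p = 0.00264). Its level was lower in induced knockdown than in induced control cells, with a log2 fold change of -2.63 (adjusted p = 0.00164).

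As a share of the Cox8 pair, Cox8b made up 1.43%, 1.18% and 0.890% in induced knockdown cells, against 6.30%, 5.77% and 8.53% in induced control cells. The general Cox8a did not move the same way. It had 705, 661 and 619 TPM in induced knockdown cells and 652, 652 and 549 TPM in induced control cells, which overlap. In uninduced cells Cox8a was higher with knockdown (log2 fold change 0.58, SE 0.14; adjusted p = 0.00588), at 859, 724 and 796 TPM in uninduced knockdown cells against 674, 575 and 457 TPM in uninduced control cells.

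Cox7a1 (ENSMUSG00000074218.4) counted 0, 12 and 11 in induced knockdown cells, against 28, 24 and 18 in induced control cells. Its counts were 3, 2 and 3 in uninduced knockdown cells and 2, 2 and 0 in uninduced control cells. Induction in control cells raised Cox7a1, with a log2 fold change of 3.88 (SE 0.99; adjusted p = 0.000528). The difference between induced knockdown and induced control cells did not pass the test (log2 fold change -1.59, SE 0.62; adjusted p = 0.131), and the lowest induced library is the shallow knockdown replicate 1. Cox7a1 took 0%, 2.24% and 2.21% of the Cox7a1 and Cox7a2 sum in induced knockdown cells and 6.05%, 5.35% and 5.46% in induced control cells. No other comparison of Cox7a1 and none of Cox7a2 was past the threshold.

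In the 12 comparisons of shares, 9 had groups that did not overlap. The TPM of single genes did not overlap either in 33.6% of all tested genes with knockdown in uninduced cells, 32% with knockdown in induced cells, 77.8% with induction in knockdown cells and 64.4% with induction in control cells. Each of those 9 share comparisons gave an exact two-sided permutation p of 0.1, the smallest that 3 against 3 libraries allow, and 0.133 after Benjamini-Hochberg adjustment. The muscle isoforms were a minor share of each pair in every library, and their highest shares were in control cells.

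**Figure D1:**
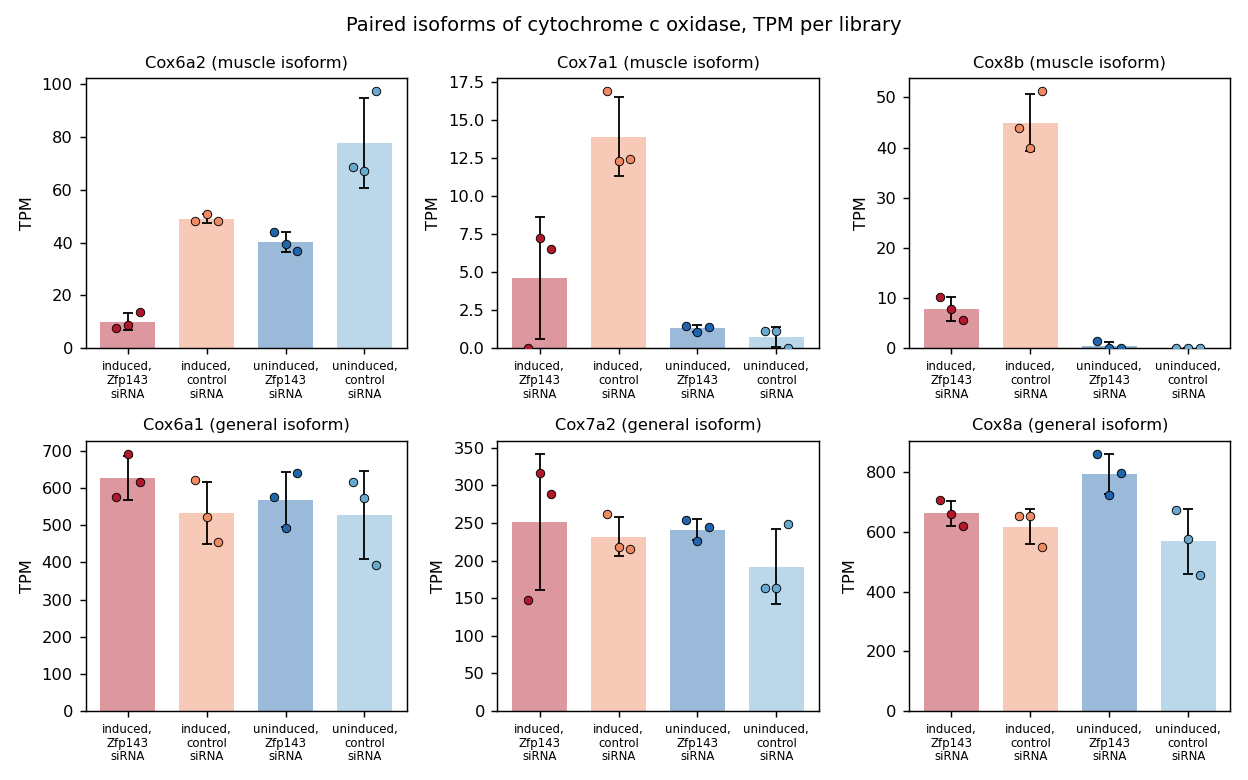
TPM of each muscle isoform (top) and its general partner (bottom) in every library: points are libraries, bars are group means and whiskers the SD (n = 3). Cox8b and Cox7a1 are tallest in induced control cells and Cox6a2 in uninduced control cells.

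Of the 8 myoblast and myotube markers, all but Myod1 were lower in the same induced knockdown libraries, without overlap. Myod1 overlapped, at 39.1 to 66.15 CPM in induced knockdown and 45.9 to 60.2 CPM in induced control cells. Myog, a myogenic regulator, had 242, 171 and 168 CPM in induced knockdown cells and 352, 378 and 322 CPM in induced control cells. Ckm, muscle creatine kinase, had 62.0, 46.4 and 49.4 CPM in induced knockdown cells and 286, 367 and 258 CPM in induced control cells. The part of differentiation in the lower Cox6a2 and Cox8b was not tested, nor that of the lower Myf5 and Myog in the lower Cox6a2 of uninduced knockdown cells, and in bulk RNA fewer myotubes and less RNA per myotube cannot be told apart. Cox7a1 and Cox8b are also known from brown fat and heart. The 5 adipocyte markers summed to at most 0.210 CPM in any library, and Ucp1 and Lep were at 0 in all 12. The 5 cardiomyocyte markers summed to 1.73 to 2.46 CPM in induced knockdown cells and 13.5 to 20.2 CPM in induced control cells. Myh6 led that list, at 1.26 to 1.30 CPM in induced knockdown and 12.4 to 18.9 CPM in induced control cells, and Myl7 was at 0 in all libraries.

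Lists of other cell types moved as well. The 5 fibroblast and smooth muscle genes summed to 1948 to 2056 CPM in induced knockdown cells and 3055 to 3494 CPM in induced control cells. They summed to 114 to 125 CPM in uninduced knockdown cells and 63.4 to 70.7 CPM in uninduced control cells. Acta2 led that list in induced cells, and developing muscle expresses it too. In uninduced cells Pdgfra led, at 66.6 to 80.8 CPM in knockdown and 38.8 to 47.65 CPM in control cells. The 5 leukocyte genes summed to 24.1 to 28.7 CPM in induced knockdown and 17.1 to 19.2 CPM in induced control cells, most of it Cd14, with Adgre1 at 0 in all libraries. The 5 endothelial genes summed to at most 5.32 CPM in any library. Their part in the results was not tested.

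The promoter windows of both Cox8 genes are shown because the pair differs in its response, and that of Cox6a1 as a general partner with NRF1 motifs. Each is the RefSeq window of GRCm38.p6 from 250 bases before to 50 after the start; the counts themselves were made on GRCm39. Capitals mark the motifs found on either strand: CAGCTG (an E-box of the MyoD type) and TATAAA in Cox8b, CCGGAAG (the ETS family, which includes GABPA) in Cox8a and Cox6a1, here as its reverse complement, and the NRF1 motif in Cox6a1, which is GCGCA and GCGC with any 1 base between them. They lie at chr7:140900397-140900696, minus strand, for Cox8b, at chr19:7217567-7217866, minus strand, for Cox8a, and at chr5:115348909-115349208, minus strand, for Cox6a1.
Cox8b: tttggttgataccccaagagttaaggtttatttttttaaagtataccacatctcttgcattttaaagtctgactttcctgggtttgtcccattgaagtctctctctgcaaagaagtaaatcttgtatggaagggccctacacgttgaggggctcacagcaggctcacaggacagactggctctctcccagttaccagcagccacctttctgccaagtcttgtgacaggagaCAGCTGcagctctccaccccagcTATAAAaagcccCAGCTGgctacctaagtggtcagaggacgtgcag
Cox8a: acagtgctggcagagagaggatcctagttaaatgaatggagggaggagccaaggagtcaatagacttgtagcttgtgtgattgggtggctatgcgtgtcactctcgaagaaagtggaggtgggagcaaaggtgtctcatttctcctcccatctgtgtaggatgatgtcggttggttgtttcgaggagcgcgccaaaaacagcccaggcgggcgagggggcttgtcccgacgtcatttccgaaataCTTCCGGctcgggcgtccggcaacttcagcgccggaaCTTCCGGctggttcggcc
Cox6a1: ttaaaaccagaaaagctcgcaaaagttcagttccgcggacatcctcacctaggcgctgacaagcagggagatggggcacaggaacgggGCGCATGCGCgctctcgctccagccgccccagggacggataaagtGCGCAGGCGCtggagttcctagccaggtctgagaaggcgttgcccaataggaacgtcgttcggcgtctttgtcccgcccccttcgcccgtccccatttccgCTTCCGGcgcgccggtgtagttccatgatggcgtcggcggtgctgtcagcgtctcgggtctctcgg
The E-boxes of Cox8b begin at -19 and 17 relative to the start and its TATAAA at 5. Cox8a has ETS motifs at -5 and 33. Cox6a1 has NRF1 motifs at -162 and -117 and an ETS motif at -16. The windows of Cox7a1 and Cox7a2 held none of the 7 motifs searched. No RefSeq window was matched for Cox6a2, the muscle partner of Cox6a1, so its promoter was not searched.

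Across the members, 71 of 88 matched a RefSeq entry, with 76 windows. The NRF1 motif was in 19 of these 76 windows and in 4.60% of all 32851 mouse windows of the same length. NRF1 is the nuclear respiratory factor named for such promoters. The ETS motif was in 22.4% of member windows and 8.86% of all, and the YY1 motif AAGATGG in 14.5% and 6.34%. CCCA and ATGC with any 2 bases between them, letters from the ZNF143 motif, were in 6 member windows, or 7.89%, against 1.88% of all. These are windows of Ndufa9, Ndufab1, Ndufv3, Atp5po and, with 2 windows, Atp5f1d. None of the 5 genes was past the threshold with knockdown in either state, with log2 fold changes of -0.31 to 0.22 in uninduced cells. CAGCTG was in 9.21% of member windows and 16.3% of all, TATAAA in 11.8% and 13.6%, and the MEF2 motif in 0% and 3.19%. A match is letters in a window, and binding was not measured.

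More members were called with induction than with knockdown. In knockdown cells 2 of 83 were higher and 49 lower, where 36% of all tested genes were higher and 30.1% lower (66.1% in either direction). In control cells 5 were higher and 40 lower, where 33.2% of all tested genes were higher and 30.9% lower (64.1% in either direction). The 2 comparisons share no library. All 40 members lower in control cells were also lower in knockdown cells, which is the whole of that list and 81.6% of the 49. The same overlap was not counted over all tested genes, so it is not read as a trait of the members. Sdha and Cox8b were higher in both, and Ndufa3, Cox7a1 and Uqcrfs1 were called higher in control cells and not in knockdown cells. With all libraries the difference itself passed the test for Uqcrfs1 and not for Ndufa3 (-0.54; adjusted p = 0.321) or Cox7a1 (-2.53; adjusted p = 0.158). Without uninduced control replicate 3 it passed for Ndufa3 as well (-0.93; adjusted p = 0.0255).

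The number and direction of these calls depend on the scaling. The median log2 fold change of the members was -0.64 in knockdown cells and -0.39 in control cells with TMM scaling. On the TPM scale it was -0.02 in knockdown cells and 0.07 in control cells, and the calls became 19 higher and 22 lower in knockdown cells and 23 higher and 16 lower in control cells. The median of all tested genes moved as well: it was 0.59 on the TPM scale and 0.10 with TMM in knockdown cells, and 0.40 and 0.03 in control cells. The members' median minus that of all genes was negative under all 5 scalings, at -0.74 to -0.62 in knockdown cells and -0.45 to -0.32 in control cells. The changes with induction below are therefore changes relative to other transcripts.

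**Figure D2:**
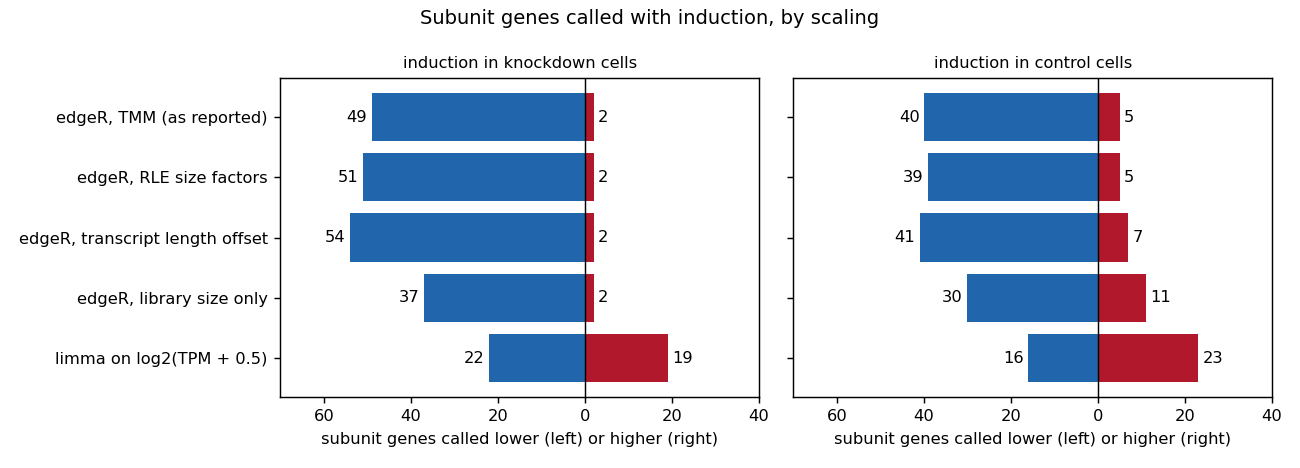
Number of the 83 tested subunit genes called lower (blue, left) or higher (red, right) with induction in knockdown and control cells, under 5 scalings. TMM gives 49 lower and 2 higher in knockdown cells and 40 lower and 5 higher in control cells; TPM gives 22 and 19, and 16 and 23.

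Most members of complex V were lower. Of 18 tested, 14 were lower in induced than uninduced knockdown cells and 12 in control cells, with none higher; median log2 fold changes were -0.72 and -0.64. Atp5mc1 is 1 of 3 genes of the membrane c ring. It had 308, 388 and 343 TPM in induced knockdown cells and 450.5, 431 and 426 TPM in induced control cells, against 751, 704 and 706 TPM in uninduced knockdown cells and 1045, 929 and 704 TPM in uninduced control cells. Its log2 fold change with induction was -1.54 in knockdown cells and -1.43 in control cells (SE 0.14 each; adjusted p = 2.55e-07 and 4.83e-07). The c ring genes Atp5mc2 and Atp5mc3 encode the same mature protein. With TMM, Atp5mc2 was not called in either state (-0.21 and -0.06). Atp5mc3 was lower in knockdown cells (-0.66) and not called in control cells (-0.21). On the TPM scale Atp5mc2 was higher without overlap, at 852.5 to 986 TPM in induced against 699 to 738 TPM in uninduced knockdown cells. In control cells it had 842 to 911 TPM in induced and 635 to 666 TPM in uninduced libraries. Atp5mc3 overlapped in knockdown cells, at 759 to 958 TPM and 830 to 912 TPM. In control cells it was higher, at 912 to 1002 TPM against 672 to 901 TPM.

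Atp5if1, the inhibitor that stops the synthase from running in reverse, had 244.5, 331 and 262 TPM in induced knockdown cells and 244, 219 and 245.5 TPM in induced control cells. Uninduced knockdown cells had 458, 457 and 489 TPM and uninduced control cells 464, 489 and 642 TPM. The induced and uninduced libraries did not overlap, and log2 fold changes with induction were -1.30 in knockdown cells (SE 0.23; adjusted p = 0.000164) and -1.70 in control cells (SE 0.23; adjusted p = 1.37e-05). All 4 tested genes of the peripheral stalk had negative values, and 3 were called lower in each state. The catalytic Atp5f1b was lower, at -0.73 in knockdown and -0.69 in control cells, but on the TPM scale its groups overlapped, at 1277 to 1479 TPM in induced knockdown against 1425 to 1445 TPM in uninduced knockdown cells.

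In complex III the small subunit Uqcrq fell to 197, 249.8 and 208 TPM in induced knockdown cells and to 280.5, 256 and 238 TPM in induced control cells. It had 894, 714 and 755 TPM in uninduced knockdown cells and 1028, 949.7 and 896 TPM in uninduced control cells. All induced libraries lay below all uninduced ones, and the log2 fold changes were -2.43 in knockdown cells (SE 0.18; adjusted p = 2.76e-08) and -2.26 in control cells (SE 0.18; adjusted p = 4.69e-08). Under every alternative run they stayed between -2.55 and -1.85 in knockdown cells and between -2.39 and -1.89 in control cells. Uqcrb, which also contacts cytochrome b, was lower, at -0.70 in knockdown cells (adjusted p = 0.0411) and -0.95 in control cells (adjusted p = 0.00866), and its highest library was uninduced control replicate 3, at 762.5 TPM. Without that library the value in control cells was -0.38 and not called (adjusted p = 0.0555); without induced knockdown replicate 1 that in knockdown cells was -0.53 and not called (adjusted p = 0.15), and 4 other single libraries also ended that call. Without both libraries Uqcrb was called in each state, at -0.52 in knockdown cells (adjusted p = 0.000211) and -0.37 in control cells (adjusted p = 0.00332). The core protein Uqcrc1 was not called in either state (log2 fold changes 0.10 and 0.03).

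The summed TPM of complex III was 2183, 2548 and 2240 in induced knockdown cells, 2542, 2500 and 2375 in induced control cells, 2961, 2561 and 2655 in uninduced knockdown cells and 3026, 3035 and 3409 in uninduced control cells. Its ratio of induced to uninduced was 0.853 in knockdown cells and 0.783 in control cells, with groups that did not overlap (exact permutation p = 0.1 each). The mean sum went from 2726 to 2324 TPM in knockdown cells and from 3156 to 2472 TPM in control cells. Uqcrq alone fell by more, from a mean of 788 to 218 TPM and of 958 to 258 TPM. The lower sum is therefore not a fall of the complex as a whole. Complex V sums were also lower, with ratios of 0.905 and 0.922 (exact p = 0.1 each). The sums of complexes I and IV overlapped between induced and uninduced cells, with ratios of 0.964 and 1.02 for complex I and 0.881 and 0.991 for complex IV. The complex II sum was higher in induced knockdown cells, at 592, 565 and 578 TPM, than in uninduced knockdown cells, at 489.6, 498 and 496.5 TPM (ratio 1.17; exact p = 0.1); in control cells the ratio was 1.04 and the groups overlapped. With the sum over all complexes, 24 comparisons of sums were made; 0.1 is the smallest p that 3 against 3 libraries allow, and each such p became 0.3 after Benjamini-Hochberg adjustment.

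**Figure D3:**
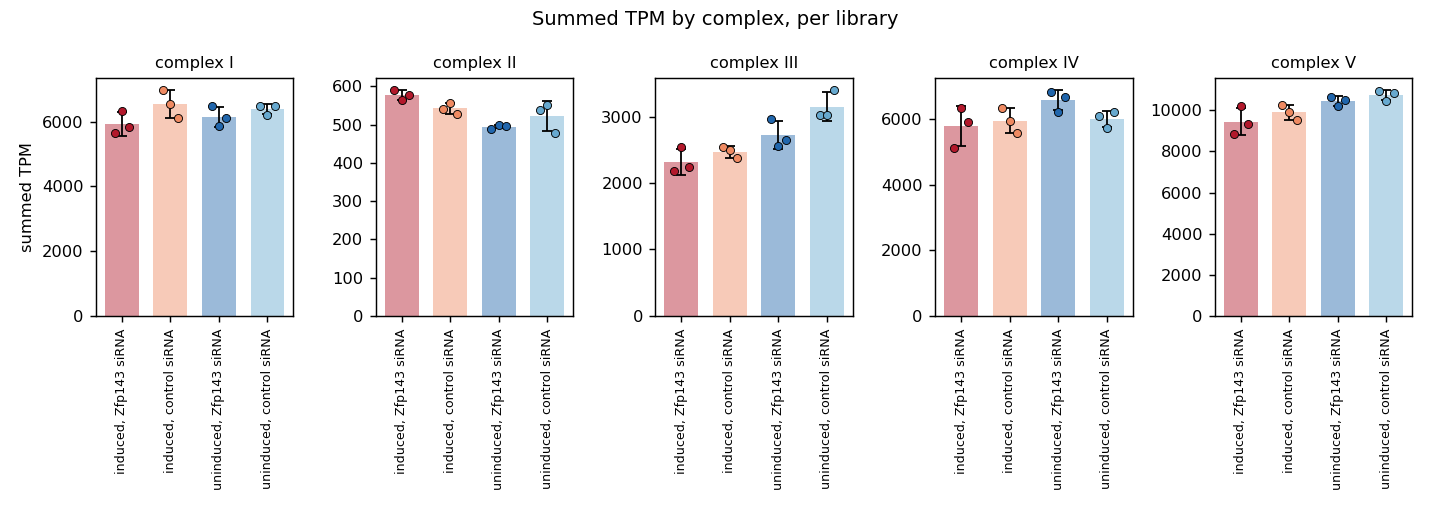
Summed TPM of the nuclear subunits of each complex in every library: points are libraries, bars are group means and whiskers the SD (n = 3). Complex III sums lie at 2183 to 2548 TPM in induced cells and 2561 to 3409 TPM in uninduced cells, while those of complexes I and IV overlap. With induction the mean of Uqcrq alone fell by more than the mean complex III sum.

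Complex II is the enzyme shared with the citric acid cycle, and its subunits diverged. Sdha, the flavoprotein, rose to 142, 129.7 and 138 TPM in induced knockdown cells and 112, 132 and 124.5 TPM in induced control cells, against 58.2, 58.9 and 60.7 TPM in uninduced knockdown cells and 77.9, 76.9 and 52.8 TPM in uninduced control cells. Its log2 fold changes were 0.55 in knockdown cells (adjusted p = 0.000361) and 0.41 in control cells (adjusted p = 0.0037), and they were positive and called under every alternative run. Sdhb, the iron-sulfur subunit that binds to Sdha, was lower, with -0.78 in knockdown cells (adjusted p = 0.00125) and -1.13 in control cells (adjusted p = 5.03e-05). The anchor Sdhd was lower (-0.93 and -0.69), while the other anchor Sdhc was not called (-0.19 and -0.05). On the TPM scale Sdhc was higher without overlap, at 188 to 201 TPM in induced against 139 to 153 TPM in uninduced knockdown cells. In control cells Sdhc had 168 to 189.5 TPM in induced and 98.55 to 164 TPM in uninduced libraries.

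Complex I had 17 of 37 members lower and none higher with induction in knockdown cells, and 13 lower and 1 higher in control cells. Of the 7 core subunits, which carry the electrons, 1, Ndufs8, was lower in each state, with median log2 fold changes of -0.21 in knockdown and -0.10 in control cells. Of the 30 supernumerary subunits, which surround the core, 16 and 12 were lower, with medians of -0.53 and -0.36. This difference between core and supernumerary genes was not tested.

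Ndufa2, a supernumerary subunit of the matrix arm, was at 202, 180.3 and 149 TPM in induced knockdown cells and 195, 186 and 137 TPM in induced control cells, against 333, 248 and 291 TPM in uninduced knockdown cells and 354, 322 and 401 TPM in uninduced control cells. The groups did not overlap, and the log2 fold changes were -1.34 in knockdown cells (adjusted p = 0.000144) and -1.53 in control cells (adjusted p = 4.08e-05). Ndufb6 of the membrane arm was lower too, at -1.38 in knockdown cells and -1.04 in control cells. With TMM scaling Ndufa3 was the 1 member of the complex called higher, with 0.79 in control cells (SE 0.26, edgeR adjusted p = 0.0146). Without uninduced control replicate 2 it was 0.53 and not called (adjusted p = 0.0745), likewise without induced control replicate 1 (0.69; adjusted p = 0.0582), and without uninduced control replicate 3 it was 1.17. Without that library Ndufa3 was also higher with knockdown in uninduced cells (0.64; adjusted p = 0.035). Ndufa3 had 114, 105 and 90.6 TPM in induced control cells and 48.1, 35.0 and 50.7 TPM in uninduced control cells. Such a rise in TPM was not particular to Ndufa3. Ndufb5, for instance, had 193, 174 and 169.5 TPM in induced control and 82.8, 75.7 and 112.5 TPM in uninduced control cells. On the TPM scale 23 of the 83 members were called higher and 16 lower in control cells. An exon of Ndufa3 overlaps Tfpt, which stood at 10.7 CPM in induced control and 12.7 CPM in uninduced control cells, and reads of the overlap cannot be told apart. The same holds for 22 of the 63 tested members found in that annotation by symbol, each with an exon overlapping another gene; among those described here are Cox4i1, Cox5a, Cox6c, Uqcrb, Ndufa2 and Ndufb6.

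Among the 10 general subunits of complex IV that were tested, 8 were lower with induction in knockdown cells and 6 in control cells. Cox4i1, the regulatory subunit that binds ATP, was lower, with -1.02 in knockdown cells (SE 0.13; adjusted p = 7.62e-06) and -0.53 in control cells (SE 0.13; adjusted p = 0.00228). On the TPM scale its induced knockdown libraries, at 678, 810.5 and 769 TPM, lay below those of uninduced knockdown cells at 1009, 992 and 1077 TPM. In control cells the ranges overlapped, at 778 to 877 TPM in induced and 598 to 1063 TPM in uninduced cells. Cox6a1 was called lower with TMM, at -0.38 in knockdown and -0.35 in control cells. On the TPM scale it was 0.15 and 0.03 and not called. Besides the TPM scale, 5 of 16 alternatives ended the call of Cox6a1 in knockdown cells and 8 of 16 in control cells. Ndufa4, once counted as a complex I subunit and now placed in complex IV, was lower in both (-0.71 and -0.66), and so was Cox7a2l, which joins complexes III and IV (-0.85 and -0.51). In control cells 7 of 16 alternatives ended the call of Ndufa4 and 10 of 16 that of Cox7a2l. The values there came as close to 0 as -0.12 and -0.03. In knockdown cells 3 of 16 and 1 of 16 ended the calls.

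**Figure D4:**
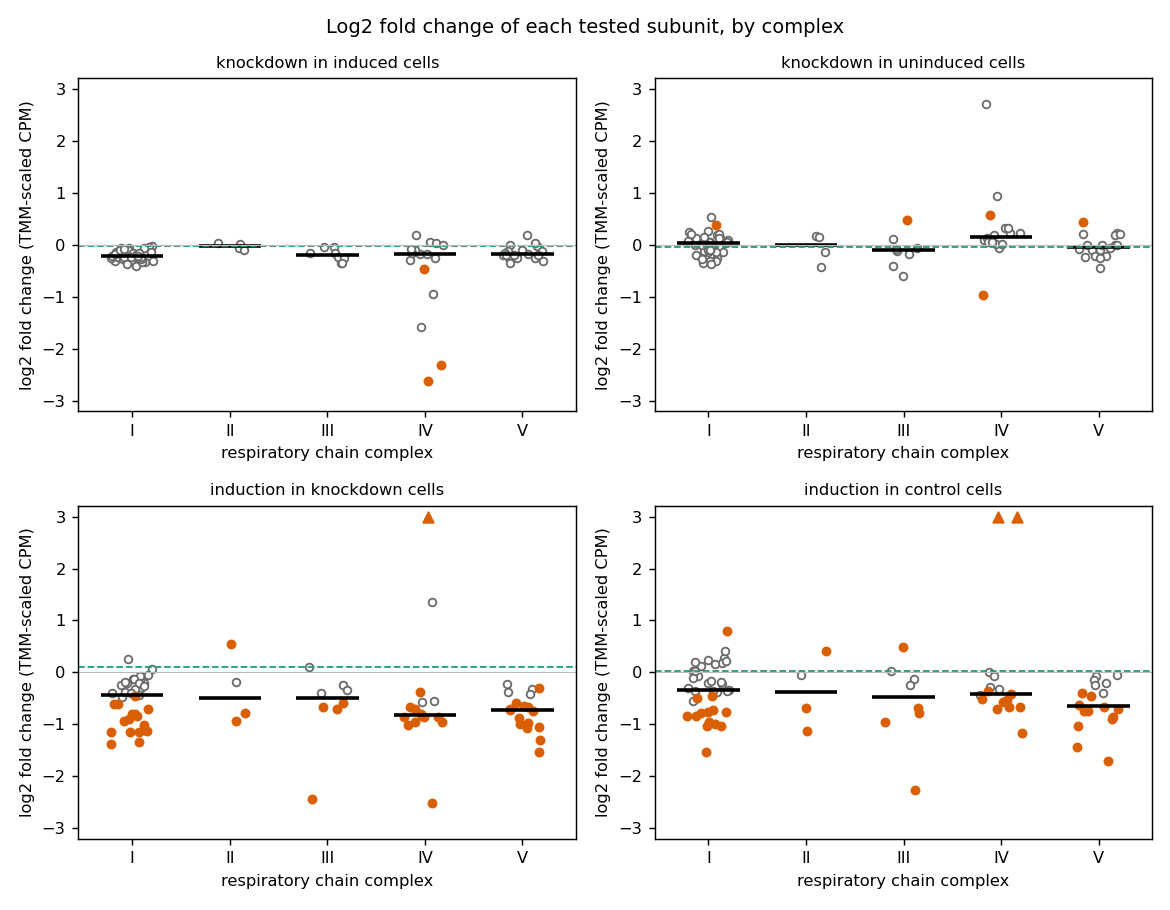
Log2 fold change of each of the 83 tested subunits (points) by complex in 4 comparisons; filled orange points passed an adjusted p of 0.05, triangles lie beyond the axis, black bars are medians of a complex and the dashed green line is the median of all tested genes. With induction complex V has medians of -0.72 in knockdown and -0.64 in control cells; with knockdown the called members below -1 are Cox6a2 and Cox8b in induced cells.

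Knockdown in induced cells called none of the 83 members higher and 3 lower, where 3.73% of all tested genes were higher and 5.77% lower (9.49% in either direction). The 3 were Cox6a2, Cox8b and Cox5a, all of complex IV. Cox5a, which with Cox5b sits outside the catalytic core, had 228, 258 and 255 TPM in induced knockdown cells and 316, 321 and 300.2 TPM in induced control cells, without overlap. Its log2 fold change was -0.46 (SE 0.13; adjusted p = 0.0289), and 4 of the 6 fits that left out a library ended the call, with adjusted p up to 0.129.

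Smaller differences of induced knockdown cells leaned one way. The log2 fold change was negative for all 37 members of complex I, between -0.42 and -0.03, and for 75 of all 83 members with TMM scaling, while 8027 of 15030 tested genes were negative. The number of members above 0 depends on the scaling, from 7 with the length offset to 21 on the TPM scale. Against the median of all genes, 73 or 74 of the 83 lay below under each of the 5 scalings, and the members' median stood -0.18 to -0.16 from it. On the TPM scale the complex II sum was higher in induced knockdown cells, at 592, 565 and 578 TPM, than in induced control cells, at 542, 558 and 528.5 TPM (ratio 1.065; exact p = 0.1). None of the complex I members passed the test by itself, and no test of the list was made. The shallow library was low for some members: Ndufa12 had 238 TPM in induced knockdown replicate 1, against 402 and 372 TPM in replicates 2 and 3.

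Knockdown in uninduced cells called 4 members higher and 1 lower, where 15.4% of all tested genes were higher and 17.1% lower (32.5% in either direction). Beside the lower Cox6a2 these were Cox8a, Uqcrfs1, Atp5f1e and Ndufa8. Uqcrfs1, the Rieske iron-sulfur protein of complex III, had 101, 95.4 and 101 TPM in uninduced knockdown cells and 82.8, 83.2 and 63.4 TPM in uninduced control cells, with no overlap (log2 fold change 0.48, SE 0.11; adjusted p = 0.00451). Atp5f1e, the epsilon subunit of the ATP synthase, had a log2 fold change of 0.44 (SE 0.16; adjusted p = 0.044). Ndufa8, an intermembrane space subunit of complex I, had 0.37 (SE 0.13; adjusted p = 0.0369). For each of these 2 genes, 4 of the 6 fits that left out a library ended the call, with adjusted p up to 0.196 for Atp5f1e and 0.131 for Ndufa8. On the TPM scale the complex IV sum was higher, at 6844, 6233 and 6685 TPM in uninduced knockdown cells against 6088, 5743 and 6212 TPM in uninduced control cells (ratio 1.095), and the complex III sum had a ratio of 0.864, both without overlap (exact p = 0.1 each).

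The number of higher members depends on 1 library. Without uninduced control replicate 3, 24 members were called higher and 1 lower with knockdown in uninduced cells, where 19% of all tested genes in that fit were higher and 18.2% lower. Without that library and induced knockdown replicate 1 together, the counts were 32 and 1, against 22.8% and 23.4% of all tested genes. On the TPM scale uninduced control replicate 3 had several abundant members below the other replicates, such as Atp5f1b at 1159 against 1731 and 1669 TPM. Others were above, such as Cox6c at 1294 TPM against 957 and 928 TPM. As a share of counts, all members together held 1.14% in that replicate, against 1.00% and 0.947% in the other uninduced control libraries.

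**Figure D5:**
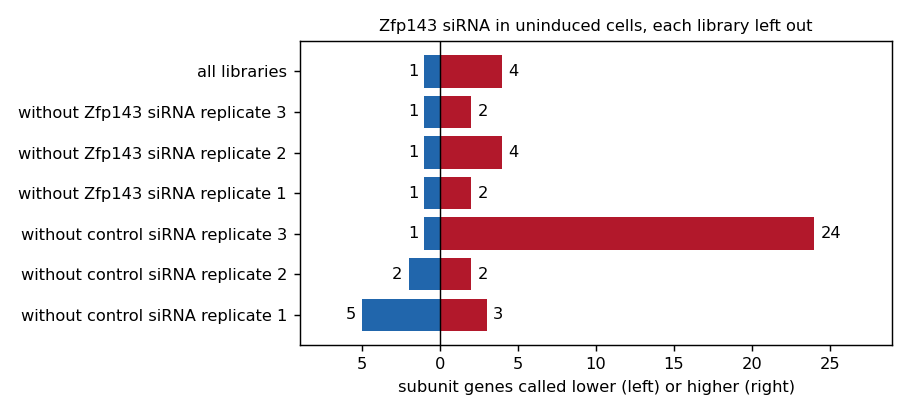
Number of the 83 tested subunit genes called lower (blue, left) or higher (red, right) in uninduced Zfp143 siRNA against uninduced control siRNA cells, with all libraries and with each library of these groups left out. Without control replicate 3 the higher calls number 24, against 4 with all libraries.

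The effect of induction differed between knockdown and control cells for 4 members. All 4 were more negative in knockdown cells, as were 11.8% of all tested genes; none was more positive, where 10.6% of all genes were (22.5% in either direction). They were Cox6a2 (-1.35, SE 0.40; adjusted p = 0.024), Ndufb1 (-0.95, SE 0.28; adjusted p = 0.026), Uqcrfs1 (-0.74, SE 0.16; adjusted p = 0.00407) and Cox5a (-0.55, SE 0.18; adjusted p = 0.0379). Without uninduced control replicate 3 there were 28, all in the same direction, where 16.2% of all tested genes were more negative and 14.4% more positive, with -1.81 for Cox6a2 and -1.28 for Ndufb1. Leaving out 1 of several other libraries ended the call of Cox6a2 (6 of 12 fits, adjusted p up to 0.0654), Ndufb1 (6 of 12, up to 0.0778) and Cox5a (7 of 12, up to 0.117). Uqcrfs1 was called in every fit run. Induction raised it in control cells (0.50; adjusted p = 0.00126), whereas in knockdown cells its log2 fold change was -0.24 with TMM (adjusted p = 0.0688) and 0.40 on the TPM scale, where it was called higher (adjusted p = 0.00696). Ndufb1, a small membrane arm subunit, was called with knockdown in neither state (0.53, adjusted p = 0.0533, in uninduced cells), but without uninduced control replicate 3 it was higher in uninduced knockdown cells (0.86; adjusted p = 0.000365). Without that library and induced knockdown replicate 1 together, Ndufb1 was called lower with knockdown in induced cells (-0.45; adjusted p = 0.0311) and higher in uninduced cells (0.86; adjusted p = 5.69e-05). It had 61.7, 74.9 and 69.9 TPM in induced knockdown cells and 94.6, 89.0 and 88.9 TPM in induced control cells. It had 101, 101 and 93.3 TPM in uninduced knockdown cells and 60.4, 64.3 and 80.8 TPM in uninduced control cells, so that the knockdown groups lay on opposite sides of the controls in the 2 states.

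Factors that put the complexes together were counted from a list of 60, of which 58 were tested. In induced cells 2 were lower with knockdown and none higher, beside 5.77% and 3.73% of all tested genes. In uninduced cells 7 were lower and 5 higher, beside 17.1% and 15.4% of all. With induction 25 were lower and 6 higher in knockdown cells (30.1% and 36% of all) and 18 lower and 7 higher in control cells (30.9% and 33.2% of all). Higd1a, a hypoxia-induced protein that attaches to complex IV, was called in all 5 tests made. It averaged 9.87 ± 0.996 CPM in induced knockdown cells, 17.1 ± 2.75 CPM in induced control cells, 198 ± 8.28 CPM in uninduced knockdown cells and 61.3 ± 16.3 CPM in uninduced control cells (SD, n = 3 each). Knockdown thus went with a higher level in uninduced cells (log2 fold change 1.69; adjusted p = 5.24e-06) and a lower one in induced cells (-0.79; adjusted p = 0.0107), and the difference between the states was -2.48 (adjusted p = 8.5e-06).

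Lrpprc, which stabilises mitochondrial mRNAs, averaged 125 ± 3.15 CPM in uninduced knockdown cells and 200.4 ± 14.3 CPM in uninduced control cells (-0.68; adjusted p = 0.000317). Tmem126a, an assembly factor of complex I, was lower with induction, at -1.81 in knockdown and -1.82 in control cells. Surf1, which acts in complex IV assembly, was higher, at 0.42 and 1.12 in the same comparisons.

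Of 17 regulators of nuclear respiratory genes 14 were tested. With knockdown, 1 was lower and none higher in induced cells (5.77% and 3.73% of all tested genes), and 8 were lower and 2 higher in uninduced cells (17.1% and 15.4% of all). With induction, 6 were lower and 1 higher in knockdown cells (30.1% and 36% of all) and 9 lower and none higher in control cells (30.9% and 33.2% of all). Ppargc1a, the coactivator PGC-1alpha, averaged 1.54 CPM in induced knockdown cells and 3.46 CPM in induced control cells, against 1.98 CPM in uninduced knockdown cells and 13.9 CPM in uninduced control cells. Its log2 fold change with knockdown was -2.81 in uninduced cells (SE 0.24; adjusted p = 1.26e-06) and -1.16 in induced cells (SE 0.26; adjusted p = 0.00753). Nrf1 was lower with knockdown in uninduced cells (-0.78; adjusted p = 0.000575) and Ppard, a fatty acid sensing nuclear receptor, was higher (1.28; adjusted p = 0.000217). Gabpa, the DNA-binding subunit of the ETS factor, was not called in any comparison, with log2 fold changes of -0.01 to 0.08.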

How the data were processed

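Polyadenylated RNA was sequenced from 12 C2C12 libraries with a kit that does not keep the strand, per the labels' protocols. Per the submitters' processing notes, the tools were fastp 1.0.1, STAR 2.7.11b and Salmon and the build was GRCm39; neither a version of Salmon nor an annotation release is given in the sources used here. The authors deposited an estimated count per gene and library, a TPM value (treated as a score, since repeated lines lift its sum) and the average transcript length in bases, per the file headers. The deposited other column used is that length. The 12 FPKM columns were not used here. Of 78810 lines 535 repeated a gene ID with the same values and were dropped. In 2 column names of induced knockdown replicates a pair of letters is transposed; the columns were taken as the libraries they otherwise match.

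Estimated counts were rounded and 15030 genes kept with filterByExpr (minimum count 10, total 15). A model of 4 group means was fitted to all libraries with edgeR 4.0.16 (R 4.3.3; TMM, robust quasi-likelihood F test, 8 residual degrees of freedom). Benjamini-Hochberg adjustment was over all tested genes, and genes with adjusted p under 0.05 are called. CPM values are scaled by TMM. Sums and shares of TPM were compared with exact two-sided permutation tests (SciPy 1.17.1). Alternatives were DESeq2 1.42.0, limma 3.58.1, other scalings, filters and sets of libraries; 2 were added after seeing the data, limma on log2(TPM + 0.5) and the fit without both libraries that stood apart. The script was tested on simulated data. Depth (13520906 to 19068323 counts) limits genes with few counts, and intervals and floors cover counting error only. How reads shared by paralogs and pseudogene copies were split is not stated, so the split between such genes is uncertain.

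The members and lists were chosen with earlier results of these data known. Named are the paralog pairs of complex IV with Cox7a2l, Ndufa4 and Atp5if1, the member of highest and lowest mean TPM of each complex, and up to 2 called members of largest change per complex, comparison and direction with at least 5 CPM in the higher group. Of related lists, genes named are among the 2 of smallest adjusted p in each direction and comparison. Gabpa, Uqcrc1, Sdhc, Ndufs8, Atp5mc2, Atp5mc3 and the genes with a ZNF143 motif were named after their values were seen. Motifs were searched on both strands of RefSeq promoter windows.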

Additional observations from a re-analysis of the deposited data

Results flagged for a closer look

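In 4 of 83 tested members the effect of the siRNA differed between induced and uninduced cells, by edgeR's test of the difference itself. The same test called 22.5% of all tested genes. Of 21 alternatives run, 6 ended the call of Cox6a2, 6 that of Ndufb1, 10 that of Cox5a and 0 that of Uqcrfs1. For Cox6a2 the difference was -1.35 on the log2 scale, from effects of -2.32 in induced and -0.97 in uninduced cells, both lower with knockdown. For Ndufb1 it was -0.95, from -0.42 in induced and 0.53 in uninduced cells, neither past the threshold by itself with all libraries. Without uninduced control replicate 3 and induced knockdown replicate 1 both were called, at -0.45 (adjusted p = 0.0311) and 0.86 (adjusted p = 5.69e-05), and the difference was -1.30. For Uqcrfs1 it was -0.74, from -0.26 and 0.48. For Cox5a it was -0.55, from -0.46 and 0.08.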

How the results depend on the processing

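The number and direction of calls with induction depend on the scaling. With limma on log2 TPM, calls with induction were 19 higher and 22 lower in knockdown cells and 23 higher and 16 lower in control cells, and 5 members were lower with knockdown in uninduced cells. On that scale the members above 0 numbered 39 with induction in knockdown and 45 in control cells, against 6 and 17 with TMM. Of the members named by the stated rules and called on either scale, log2 fold changes turned round for some. In knockdown cells these were Cox6a1 (0.15), Uqcrfs1 (0.40) and Ndufs4 (0.34), and in control cells Cox6a1 (0.0331), Cox5a (0.0134) and Ndufb1 (0.42). With library size as the only scaling, 11 members were higher with induction in control cells. Fitting only the groups compared left 1 member higher with induction in knockdown cells. Without a filter on low counts 4 members were lower with knockdown in uninduced cells. DESeq2 and the transcript length offset each gave 10 members with a more negative effect of induction in knockdown cells. Without both libraries that stood apart, 32 members were higher with knockdown in uninduced cells, 13 higher with induction in control cells and 33 differed in the effect of induction. Of all tested genes in that fit, the shares were 22.8%, 35.3% and 37.3%, the last in either direction. All 33 were more negative in knockdown cells, as were 19.4% of all tested genes. The cause was not tested.

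With 1 library left out, members higher with knockdown in uninduced cells numbered 2 to 24 and lower ones 1 to 5. Those higher with induction in control cells numbered 4 to 10, and those with a differing effect of induction 1 to 28. The highest counts of higher and differing members were without uninduced control replicate 3. Of all tested genes in these fits, 11.5% to 19% were higher and 10.9% to 18.2% lower with knockdown in uninduced cells. With induction in control cells 30.2% to 32.7% were higher, and 16.2% to 30.6% differed in the effect of induction. As shares of estimated counts, which are not divided by length, the differences in percentage points with knockdown in induced cells were -8.53 for Cox6a2, -1.88 for Cox7a1 and -2.26 for Cox8b. With induction they were -6.32 for Cox6a2 and 0.399 for Cox8b in knockdown cells, and 2.34 for Cox7a1 and 2.67 for Cox8b in control cells. With a replicate block 50 members were lower with induction in knockdown cells and 5 differed in the effect of induction; no other count changed. Same-numbered libraries of different groups correlated between -0.0963 and 0.306 after removal of group means, and others between -0.279 and 0.249, so the numbers were not taken as pairs.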

Other observations

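Of 20 genes of electron carriers and ubiquinone synthesis, 3 were lower and none higher with knockdown in induced cells, where 5.77% of all tested genes were lower and 3.73% higher. In uninduced cells 2 were lower and 1 higher, where 17.1% and 15.4% of all were. Coq8a, a kinase-like protein needed for ubiquinone synthesis, averaged 15.2 CPM in induced knockdown cells and 53.8 CPM in induced control cells, against 1.27 CPM in uninduced knockdown cells and 1.02 CPM in uninduced control cells. Its log2 fold change with knockdown in induced cells was -1.82 (adjusted p = 2.85e-06). Coq10a, a ubiquinone-binding protein, was lower with knockdown in induced cells (-0.60; adjusted p = 0.00533) and higher in uninduced cells (0.62; adjusted p = 0.00269). Cycs, cytochrome c itself, was lower with induction, at -2.32 in knockdown and -2.27 in control cells.

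With all libraries none of the 13 mitochondrially encoded subunits was called with knockdown in induced cells or with induction in knockdown cells. Some were without single libraries: without induced knockdown replicate 3, mt-Co3 was lower in both comparisons (-1.35, adjusted p = 0.0406, and -1.89, adjusted p = 0.000678), and without induced knockdown replicate 1, mt-Nd6 was higher with induction in knockdown cells (0.83; adjusted p = 0.0149). With all libraries mt-Nd6 was lower with knockdown in uninduced cells (-0.85; adjusted p = 0.0283), and mt-Cytb was lower with induction in control cells (-0.89; adjusted p = 0.0163). Both calls are lost without uninduced control replicate 3, in which mitochondrially encoded genes took 6.02% of counts, with -0.35 for mt-Nd6 (adjusted p = 0.163) and -0.33 for mt-Cytb (adjusted p = 0.116). Without that library and induced knockdown replicate 1 together both were called, at -0.35 (adjusted p = 0.00204) and -0.32 (adjusted p = 0.00171). Leaving out any 1 of the uninduced knockdown libraries also ended the call of mt-Nd6 (adjusted p up to 0.0793). Without strand, reads of mt-Nd6 and of transcripts opposite to it cannot be told apart. In uninduced knockdown cells mt-Nd6 averaged 284 ± 4.50 CPM and mt-Cytb 4470 ± 160 CPM, against 514 ± 263 CPM and 5485 ± 3097 CPM in uninduced control cells (SD, n = 3 each), where the spread was wide.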
